A study of Mus musculus with 64 samples.

Results

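Insulin signalling components are described here across 4 mouse tissues, 2 genotypes and 2 diets. They are the 10 genes Insr, Igf1r, Irs1, Irs2, Pik3r1, Akt1, Akt2, Foxo1, Foxo3 and Grb10, chosen by name as rows of the deposited tables, and all 10 of 19521 genes were found. Total RNA was sequenced from the liver, heart, muscle and white adipose tissue (WAT) of male mice of the C57BL/6J strain, 16 weeks old at sampling. The fat depot and the muscle are not named in the labels. One genotype was wild type (CTRL) and the other was labelled KO, described as Pklr-/-. Each genotype stayed on standard chow or received a high-sucrose diet (HSD) for the 8 weeks before sampling, and every tissue, genotype and diet combination has 4 libraries, 64 in all. How the Pklr allele was made is not given in the sources used here.

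Insulin and IGF1 bind the receptor tyrosine kinases encoded by Insr and Igf1r, which phosphorylate the docking proteins IRS1 and IRS2. Docked PI3-kinase, held by the regulatory subunit that Pik3r1 encodes, produces the lipid signal that recruits the kinases AKT1 and AKT2. AKT promotes glucose uptake in fat and muscle and glycogen and lipid synthesis in liver, and it keeps the transcription factors FOXO1 and FOXO3 out of the nucleus, while the adaptor GRB10 restrains the receptors. The series title concerns PKLR, the pyruvate kinase of liver and red blood cells, as a target in fatty liver, so the comparisons ask what genotype and diet did in each tissue.

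Total estimated counts were 5724366 to 12188623 per library. Each tissue carried its own defining markers: the summed level of 7 hepatocyte genes was 29420 to 91270 TPM (transcript abundance per length and per library total) in liver, and the 6 adipocyte genes summed to 32340 to 41760 in WAT. The 6 cardiomyocyte genes summed to 11580 to 17810 TPM in heart and the 7 skeletal fibre genes to 28010 to 36500 in muscle. No gene of these 4 lists was at 0 in its own tissue. RNA of the gene named in the genotype was on average higher, not lower, in the liver libraries labelled KO. Pklr in liver was 113 ± 37.05 TPM (SD, n = 4) in CTRL on chow and 211.7 ± 55.16 in labelled KO on chow, and 212.6 ± 44.77 and 405.1 ± 63.39 on HSD. On chow edgeR called 0 of 11259 genes between the genotypes in liver, so the Pklr difference there did not pass. RNA levels do not show whether the allele changed the protein. The genotype is therefore called "labelled KO" throughout, and no direction below is read as an effect of losing Pklr.

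In CTRL mice on chow the deposited TPM values placed WAT first for 9 of the 10 genes and heart first for Foxo3, while counts scaled by TMM turned the order of WAT and another tissue, past the test, for Insr, Igf1r, Irs1, Akt1, Akt2, Foxo3 and Grb10. The levels ran from below 1 TPM to over 150, and TPM is per transcript length, so genes can be set side by side. The median of all genes tested was itself higher in WAT on this scale, by 1.12 (log2) over liver, 1.17 over heart and 1.09 over muscle. On the TMM counts, a scaling that aligns the bulk of genes, the same medians were 0.02 (liver minus WAT), 0.04 and 0.12. The TMM differences that turned are given beside each gene.

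**Figure D1:**
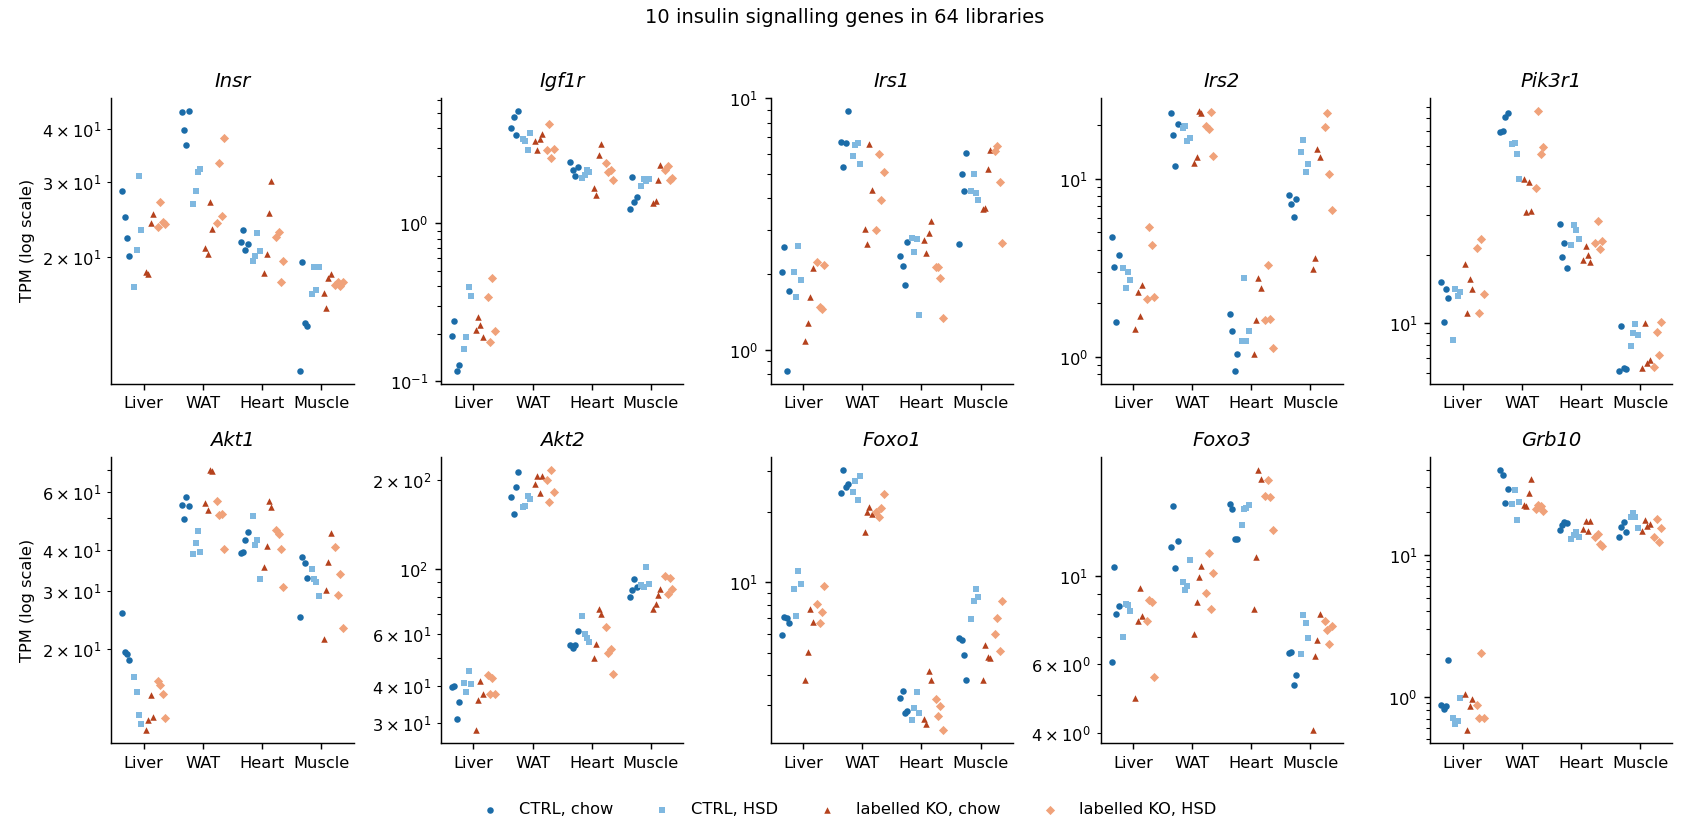
Each panel plots 1 gene in TPM (log axis) for all 64 libraries, by tissue and with a colour and shape for each genotype and diet. Liver lies far below the other tissues for Igf1r and Grb10. In CTRL on chow, WAT has the highest mean for 9 genes on this scale. In labelled KO, mean Irs1 is higher in muscle than in WAT on either diet, and on chow mean Insr is higher in heart than in WAT. The CTRL chow order turned against another tissue on TMM counts for Insr, Igf1r, Irs1, Akt1, Akt2 and Grb10. That of WAT against liver and muscle also turned for Foxo3.

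Of the receptors, Igf1r was lowest in liver. Insr (GRCm38 chromosome 8, 3122061 to 3279617, minus strand) was 41.18 ± 3.602 TPM in WAT, 23.9 ± 3.69 in liver, 21.7 ± 1.04 in heart and 14.46 ± 3.599 in muscle of CTRL mice on chow (SD, n = 4). Liver and heart overlapped, and their difference was not called (log2 difference -0.10, edgeR adjusted p = 0.484). Against WAT the direction depended on the scale. On TMM counts Insr was higher in liver than in WAT (liver minus WAT 0.59, adjusted p = 7.17e-05) and lower in WAT than in heart (WAT minus heart -0.68, adjusted p = 1.07e-05). Igf1r (chromosome 7, 67952827 to 68233668, plus strand) was 4.37 ± 0.68 TPM in WAT, 2.22 ± 0.18 in heart, 1.505 ± 0.31 in muscle and 0.17 ± 0.06 in liver. Its 4 liver libraries held 0.19, 0.24, 0.12 and 0.13 TPM, and all CTRL chow libraries of the other tissues held at least 1.24. The liver values rest on 10.77 to 24 estimated counts per library. On TMM counts liver was lower than WAT (log2 difference -3.09, adjusted p = 5.93e-15), and also lower than heart and muscle. WAT, first in TPM, was lower than heart on those counts (WAT minus heart -0.56, adjusted p = 0.00134). The Insr level was 101 times the Igf1r level in liver (median over 16 libraries, range 52.6 to 174), against 8.54 in WAT, 9.97 in heart and 9.35 in muscle.

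The docking proteins took different orders. Irs1 (chromosome 1, 82233101 to 82291416, minus strand) was 6.89 ± 1.495 TPM in WAT, 4.49 ± 1.44 in muscle, 2.25 ± 0.37 in heart and 1.78 ± 0.72 in liver. Neighbours in that order overlapped in every case, and on TMM counts Irs1 was lower in WAT than in muscle (WAT minus muscle -0.81, adjusted p = 0.00145). Irs2 (chromosome 8, 10984681 to 11008458, minus strand) was 18.2 ± 4.88 TPM in WAT, 7.26 ± 0.85 in muscle, 3.30 ± 1.30 in liver and 1.25 ± 0.40 in heart. Heart was lower than WAT (log2, WAT minus heart 2.31, adjusted p = 7.18e-09) and lower than muscle (heart minus muscle -2.41, adjusted p = 9.65e-09). The median Irs1 to Irs2 ratio over 16 libraries was 0.305 in WAT (0.152 to 0.559), 0.686 in liver (0.276 to 1.05), 0.393 in muscle (0.277 to 1.17) and 1.35 in heart (0.651 to 2.62). Irs2 was the higher in every WAT library, while the ranges of the other tissues included 1.

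The 250 bases before the RefSeq start of Irs1 and Irs2 (build GRCm38.p6) are shown because these were the windows among the members that held the insulin response element TGTTTTG or the E-box CACGTG. Promoter windows were found for 9 of the 10 members, 15 windows in all, and both strands were searched. Irs1 lies at chr1:82291440-82291689 and Irs2 at chr8:11008930-11009179, both on the minus strand and printed 5′ to 3′ with matches in capitals.
Irs1: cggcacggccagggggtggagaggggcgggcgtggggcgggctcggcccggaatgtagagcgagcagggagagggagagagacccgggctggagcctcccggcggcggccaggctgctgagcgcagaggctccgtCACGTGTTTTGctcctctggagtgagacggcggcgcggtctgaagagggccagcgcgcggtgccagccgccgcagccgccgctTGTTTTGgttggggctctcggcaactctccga
Irs2: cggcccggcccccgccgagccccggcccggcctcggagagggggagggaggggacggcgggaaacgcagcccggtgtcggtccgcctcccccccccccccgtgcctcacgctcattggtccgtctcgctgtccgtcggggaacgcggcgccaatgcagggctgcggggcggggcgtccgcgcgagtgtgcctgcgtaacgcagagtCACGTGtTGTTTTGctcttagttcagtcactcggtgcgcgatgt

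In Irs1 the E-box begins 115 bases before the start and overlaps an insulin response element that begins at 111, and another element begins at 32. In Irs2 the E-box begins at 44 and the element follows at 37. Over all 32851 promoter windows of this length, 5.56% held the insulin response element and 6.02% the E-box. The FOXO element GTAAACA, found in 3.17% of windows, matched 1 member window, the promoter of Akt1 at 161 bases before the start on the minus strand. A match describes the letters of the window and says nothing of a factor bound there.

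Pik3r1 (chromosome 13, 101680563 to 101768217, minus strand), which encodes the p85 alpha, p55 alpha and p50 alpha regulatory subunits of PI3-kinase, was 76.4 ± 7.29 TPM in WAT, 21.6 ± 4.26 in heart, 13.1 ± 2.19 in liver and 7.13 ± 1.74 in muscle. The 4 tissues did not overlap. On TMM counts WAT was above muscle by 2.005 (log2, adjusted p = 1.47e-12) and above liver (liver minus WAT -1.35, adjusted p = 5.33e-09). Against heart the difference was 0.28 (adjusted p = 0.113). It was 0.36 with DESeq2 size factors in edgeR (adjusted p = 0.0394) and 1.79 on log2(TPM + 1) (limma adjusted p = 1.49e-11).

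Liver also differed in the form of the Pik3r1 transcripts. Dividing a gene's estimated count by its TPM, relative to Irs2 in the same library, gives the transcript length that the quantification implied for it. For Igf1r, with 1 annotated coding transcript, this ratio was 1.831 to 1.835 in all 64 libraries. For Pik3r1, with 4 coding transcripts of 547 to 7113 bases, the medians were 1.121 in WAT, 1.127 in heart, 1.121 in muscle and 0.939 in liver. The liver libraries held 0.77, 0.97, 0.89 and 0.84 in CTRL on chow, 1.07, 1.03, 1.07 and 0.97 in CTRL on HSD, 0.83, 0.90, 0.90 and 0.98 in labelled KO on chow and 0.79, 0.91, 1.10 and 0.98 in labelled KO on HSD. All 16 lay below the lowest WAT library, at 1.104, while heart reached down to 1.013 and muscle to 1.007. Insr was also shorter in liver, with a median of 1.167 (1.035 to 1.307) against 1.349 in WAT, 1.374 in heart and 1.398 in muscle. These ratios are given as a description with no test. Counts of Pik3r1 and Insr in liver against other tissues thus mix level with transcript length, whereas TPM divides the length out.

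**Figure D2:**
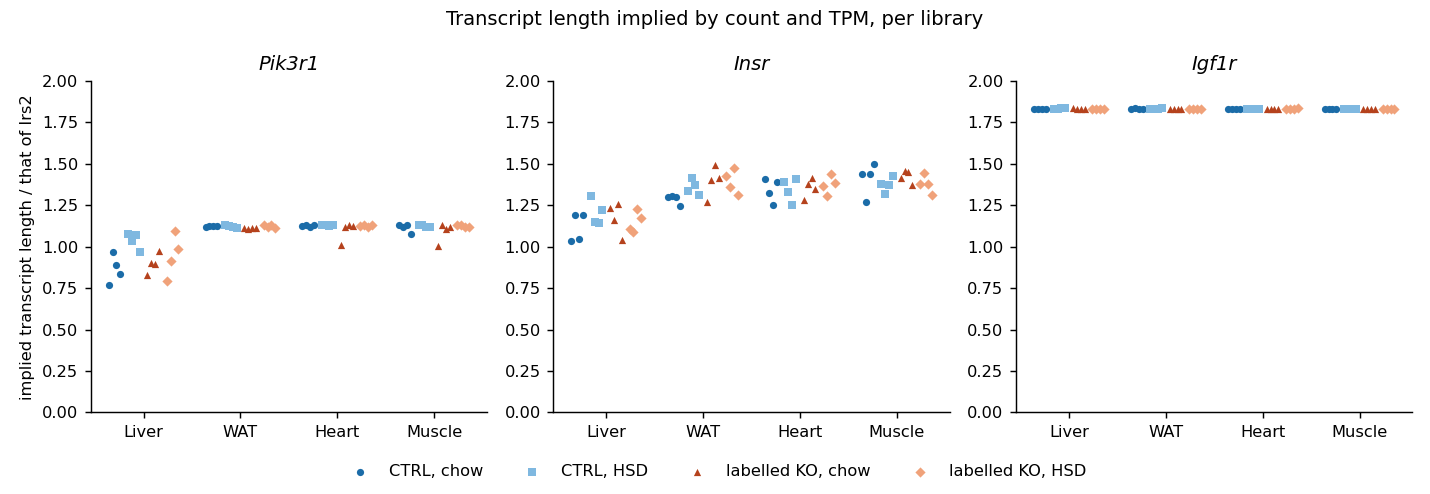
Each panel plots, for 1 gene, the transcript length implied by count and TPM divided by that of Irs2 in the same library, by tissue, with genotype and diet as colours. Pik3r1 is shorter and more variable in the 16 liver libraries, and Igf1r, with 1 annotated coding transcript, sits at 1.83 in all.

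RefSeq places Pik3r1 at 2 promoters, printed because the tissues differed in implied length: the upstream one at chr13:101768218-101768467 and an internal one at chr13:101692631-101692880, both on the minus strand of GRCm38.p6. Each sequence is the 250 bases before the start, 5′ to 3′, with no motif marked since none of the 3 searched was found.
Pik3r1 upstream promoter: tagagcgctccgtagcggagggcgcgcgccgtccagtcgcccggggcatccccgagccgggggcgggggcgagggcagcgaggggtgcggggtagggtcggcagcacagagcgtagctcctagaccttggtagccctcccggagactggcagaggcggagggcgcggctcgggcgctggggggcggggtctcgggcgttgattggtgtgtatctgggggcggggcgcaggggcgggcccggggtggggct
Pik3r1 internal promoter: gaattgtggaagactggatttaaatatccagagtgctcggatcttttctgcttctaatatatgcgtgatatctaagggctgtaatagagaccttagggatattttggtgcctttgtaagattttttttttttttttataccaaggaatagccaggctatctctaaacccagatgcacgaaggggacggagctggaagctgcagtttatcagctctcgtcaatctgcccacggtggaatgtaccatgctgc
The upstream window is 76.4% G and C and the internal one 42.4%. Which promoter the reads came from was not tested, since the tables give 1 value per gene.

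Of the kinases, Akt2, the main isoform for insulin-stimulated glucose uptake, was the most abundant member in every tissue of CTRL mice on chow. Akt2 (chromosome 7, 27591552 to 27640826, plus strand) was 182 ± 24.5 TPM in WAT, 86.0 ± 4.82 in muscle, 56.5 ± 3.53 in heart and 36.6 ± 4.31 in liver, with no overlap. Akt1 (chromosome 12, 112653821 to 112674884, minus strand) was 54.2 ± 3.35 in WAT, 41.7 ± 2.88 in heart, 33.2 ± 5.81 in muscle and 20.8 ± 3.27 in liver, where liver and muscle overlapped. The median Akt1 to Akt2 ratio was 0.734 in heart (0.577 to 0.861 over 16 libraries) and 0.27 in WAT, 0.375 in liver and 0.378 in muscle. On TMM counts Akt1 was lower in WAT than in heart (WAT minus heart -1.08, adjusted p = 4.09e-07) and on TPM it was higher by 0.37 (limma adjusted p = 0.00779). Against muscle, which lay below WAT in TPM, TMM counts put WAT lower for both kinases, by -0.83 for Akt1 (adjusted p = 2.23e-05) and by -0.40 for Akt2 (adjusted p = 0.000474).

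The FOXO factors divided the tissues between them. Foxo1 (chromosome 3, 52268336 to 52353221, plus strand) was 26.5 ± 2.59 TPM in WAT, 6.70 ± 0.52 in liver, 5.04 ± 0.90 in muscle and 3.04 ± 0.31 in heart, without overlap. Foxo3 (chromosome 10, 42181841 to 42276755, minus strand) was 13.65 ± 1.501 TPM in heart, 12.4 ± 1.87 in WAT, 8.23 ± 1.82 in liver and 5.92 ± 0.56 in muscle, and neighbours overlapped throughout. The median Foxo1 to Foxo3 ratio was 2.32 in WAT (1.66 to 2.94) and 0.216 in heart (0.154 to 0.317), with 0.861 in liver and 0.916 in muscle. The 2 ranges of WAT and heart do not meet. On TMM counts Foxo1 was higher in WAT than in heart by 1.58 (adjusted p = 5.65e-12) and Foxo3 was lower (-1.70, adjusted p = 2.92e-13). On log2(TPM + 1) the Foxo3 difference was -0.14 (limma adjusted p = 0.278). WAT lay above liver and muscle in Foxo3 TPM and below both on TMM counts (liver minus WAT 0.97, adjusted p = 4.49e-08, and WAT minus muscle -0.355, adjusted p = 0.013).

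Grb10 (chromosome 11, 11930508 to 12038683, minus strand), an imprinted gene, showed the widest tissue range, 29.3-fold in TPM from first to last. It was 32.1 ± 7.42 TPM in WAT, 16.3 ± 0.94 in heart, 15.2 ± 1.62 in muscle and 1.09 ± 0.49 in liver, and heart and muscle overlapped (log2 difference 0.24, adjusted p = 0.227). Liver was lower than WAT (liver minus WAT -3.33, adjusted p = 1.62e-15). On TMM counts WAT was lower than heart (WAT minus heart -0.56, adjusted p = 0.00337), against the order in TPM. In bulk tissue, fewer cells of a type and less RNA per cell cannot be told apart, here or in any later comparison.

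Counted over the members, 8 of 10 differed between liver and WAT by edgeR's quasi-likelihood test, where 73.8% of all genes tested did. The other counts were 8 between liver and heart (71.5% of all genes), 10 between liver and muscle (73.7%), 7 between WAT and heart (65.7%), 6 between WAT and muscle (74.5%) and 8 between heart and muscle (51.1%). The counts of liver against WAT, liver against heart and WAT against heart lay near the background share. Those against muscle lay above it for liver and heart and below it for WAT. With 10 members these departures were not tested, and nothing particular of the members is read from the counts. With log2(TPM + 1) and limma, the count between WAT and muscle became 10.

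**Figure D3:**
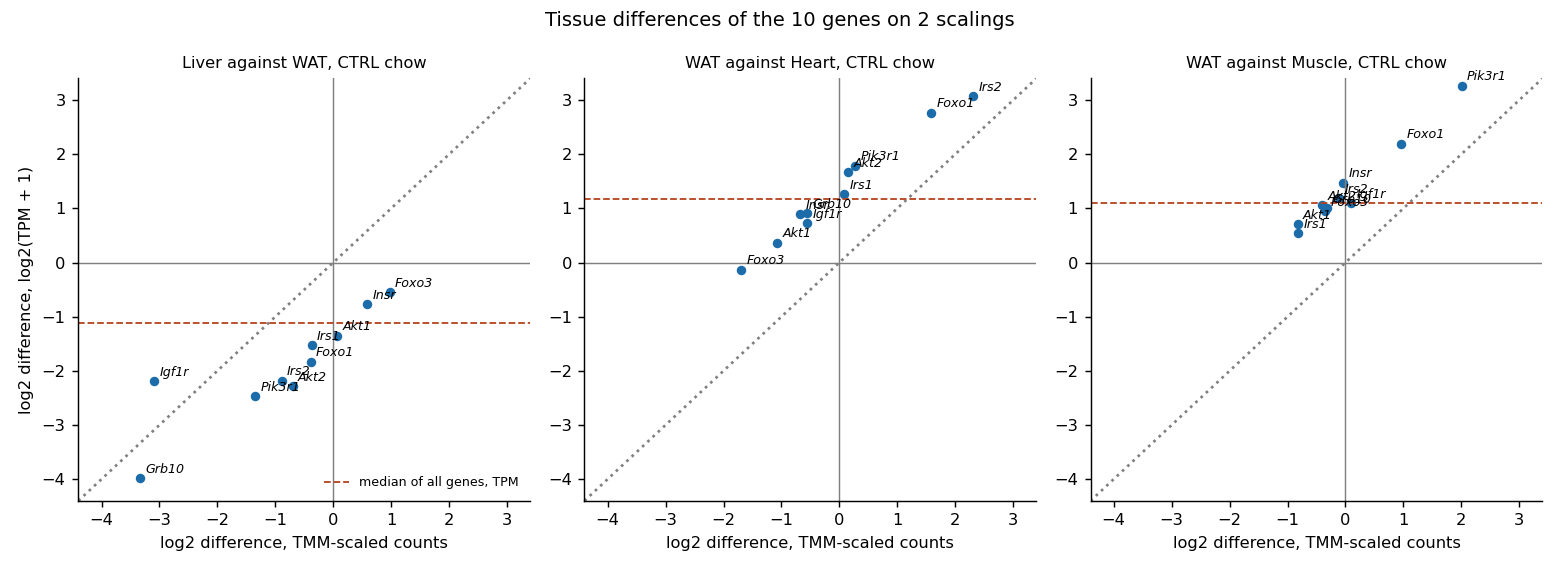
Each panel plots the log2 difference of the 10 genes between WAT and another tissue on TMM-scaled counts (horizontal) and on log2(TPM + 1) (vertical), in CTRL on chow, with equality dotted and the TPM median of all genes dashed. Most genes are displaced from equality towards WAT by about the median of all genes, and Igf1r in liver, below 1 TPM, is compressed by the pseudocount.

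In WAT on chow, 3 members fell in labelled KO relative to CTRL: Insr, Pik3r1 and Foxo1. That is 3 of 10, where 6.68% of all 13255 genes tested were called in either direction and 5.5% were called lower. Insr held 43.9, 39.9, 36.6 and 44.3 TPM in CTRL on chow and 20.9, 20.4, 26.9 and 23.2 in labelled KO on chow. Every labelled KO library lay below every CTRL library. The change was -0.70 ± 0.14 (log2, approximate standard error, edgeR adjusted p = 0.00766), or 0.614-fold.

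Pik3r1 in WAT held 69.8, 70.6, 80.9 and 84.3 TPM in CTRL on chow and 43.2, 30.97, 41.7 and 31.1 in labelled KO on chow, again without overlap. It fell by 1.04 ± 0.18 on the log2 scale (adjusted p = 0.00467). Foxo1 held 24.02, 30.1, 25.5 and 26.3 TPM in CTRL and 16.4, 20.04, 20.99 and 19.6 in labelled KO, without overlap, and fell by 0.43 ± 0.11 (adjusted p = 0.0247). Over genes above 1 TPM, 12.3% had ranges that did not overlap in this comparison.

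**Figure D4:**
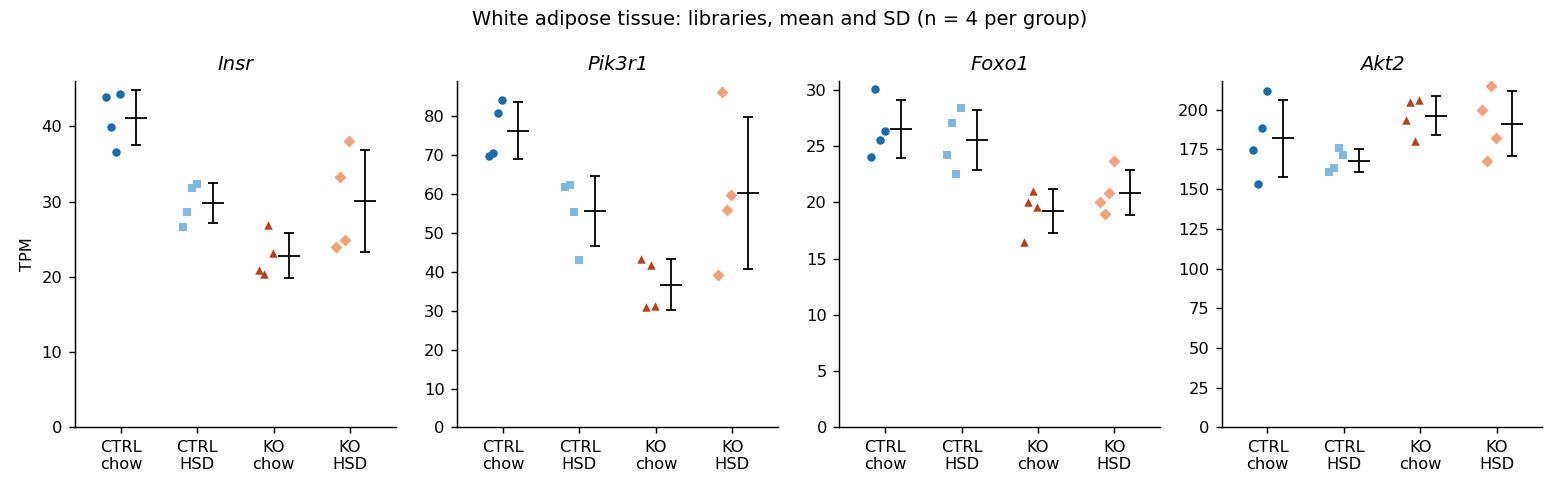
Points are WAT libraries in TPM by genotype and diet (KO is the labelled KO), and black bars give mean and SD with n = 4. Insr, Pik3r1 and Foxo1 are lower in labelled KO than in CTRL on chow without overlap, and Akt2, at 181.9 and 196.3 TPM, is not.

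The other 7 members did not pass in this comparison. Foxo3 changed by -0.41 ± 0.12 (adjusted p = 0.0585), Irs1 by -0.72 ± 0.24 (adjusted p = 0.0876) and Igf1r by -0.37 (adjusted p = 0.091). Akt1 was at 0.26 (adjusted p = 0.24), Akt2 at 0.18 (0.392), Grb10 at -0.26 (0.352) and Irs2 at 0.01 (0.988). The median over the 10 members was -0.39, and the median over all genes was 0.02. The DESeq2 Wald test called 5 members, with Irs1 and Foxo3 added.

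Transcript length, libraries and clock state moved with this comparison. Regressed on log2 transcript length, a library's values had slopes of 0.0236 to 0.1668 in WAT of CTRL on chow and -0.0487 to -0.021 in WAT of labelled KO on chow, and several members are long, Foxo1 at 8665 bases and Igf1r at 11409. With the length trend removed, Insr was -0.53 (adjusted p = 0.0382), Pik3r1 -1.10 (0.00734) and Foxo1 -0.08 (0.69). The trend was taken at the median annotated coding length, 5013 bases for Insr and 1812 for Pik3r1. Their implied lengths in WAT were longer, at 1.349 and 1.121 times that of Irs2, which has 6323 bases. This setting thus cannot show whether Insr and Pik3r1 followed the length trend. Leaving out CTRL chow replicates 2 and 4, whose slopes were beyond 0.1, left 0 members called, with Insr at -0.69 (0.106), Pik3r1 at -1.02 (0.088) and Foxo1 at -0.34 (0.239), and 16 genes called in place of 885. Leaving out any single library of the comparison kept the calls of Insr (-0.78 to -0.62) and Pik3r1 (-1.13 to -0.93), while Foxo1 missed the threshold in 5 of 8 cases (-0.46 to -0.36).

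A clock score, the mean log2 level of 6 clock-controlled genes (Hlf, Tef, Dbp, Ciart, Per3, Per2) less that of 3 antiphase ones (Clock, Npas2, Arntl), was -0.50 to 1.43 in CTRL chow WAT and -1.59 to 0.09 in labelled KO chow WAT. With the score as a covariate Pik3r1 kept its call (-1.10, adjusted p = 0.0423), and Insr (-0.54, 0.0897) and Foxo1 (-0.39, 0.154) did not. Adipocyte markers summed to 33050 to 40620 TPM in CTRL and 32340 to 41760 in labelled KO, and 0 of 6 were called. Hepatocyte markers summed to 14.1 to 25.5 TPM in CTRL and 23.2 to 436.6 in labelled KO, with 2 of 4 tested called higher. The highest value was that of labelled KO chow replicate 3, without which Insr was -0.78 (adjusted p = 0.00717) and Pik3r1 -1.06 (0.0106). Macrophage markers summed to 137.1 to 202.8 TPM in CTRL and 121.8 to 167.6 in labelled KO, and fibroblast markers to 2017 to 2700 and 2357 to 2920, with 1 of 5 called lower in each list. None of these markers was at 0, and their part in the result was not tested.

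Among the other genes of the pathway in this WAT comparison, the AKT activation and substrate list had 6 of 13 members called, all lower, with a list median of -0.38. Pdpk1, the kinase that activates AKT, fell by 0.73 ± 0.11 (adjusted p = 0.00283), from 24.4 ± 0.75 TPM to 14.8 ± 3.74. Gsk3b, an AKT substrate that restrains glycogen synthesis, fell by 0.56 (adjusted p = 0.0107), and Phlpp2, a phosphatase that acts on AKT, by 0.56 (0.0116). In the PI3-kinase list the catalytic subunit gene Pik3ca was called lower, at -0.56 (adjusted p = 0.0125). Rictor, of mTOR complex 2, was the 1 of 14 mTOR genes called (-0.61, 0.00445), and Sesn3 the 1 of 14 FOXO-list genes (-0.56, 0.0487). Igfbp2, an IGF-binding protein, was the 1 of 12 ligand-list genes called and rose by 1.96 ± 0.53 (adjusted p = 0.04). None was called among 10 other docking and receptor genes, 11 negative regulators at the receptor or 6 lipogenic regulators. The genes called thus included both activators and inhibitors of the pathway. Their values in other settings are not given here. Most calls of this comparison were lost without CTRL chow replicates 2 and 4, as stated above.

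On HSD no member differed between labelled KO and CTRL in WAT by edgeR, DESeq2 or limma. In edgeR 1 member had an unadjusted p under 0.05, and 0.106% of all genes were called. Insr in WAT was 29.8 ± 2.68 TPM in CTRL and 30.09 ± 6.81 in labelled KO on HSD (change 0.05, adjusted p = 0.943). Pik3r1 was 55.7 ± 8.94 and 60.3 ± 19.5 TPM (0.10, 0.895). The clock score was -1.51 to 0.23 in CTRL and 2.46 to 3.30 in labelled KO on HSD. Clock state and genotype thus cannot be told apart in this comparison.

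Within labelled KO, HSD raised 2 members in WAT, where 6.38% of genes were called and 2.7% were called higher. Insr held 24, 33.3, 24.9 and 38.1 TPM on HSD against the chow values above, with overlapping groups, and rose by 0.53 ± 0.14 (adjusted p = 0.0332). Pik3r1 held 39.2, 86.3, 55.8 and 59.8 TPM on HSD, with 1 library inside the chow range, and rose by 0.85 ± 0.18 (adjusted p = 0.0121). On log2(TPM + 1), where the median of all genes moved by -0.12, Insr was at 0.37 (limma adjusted p = 0.111) and Pik3r1 at 0.66 (0.0445).

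The clock score was 2.46 to 3.30 in labelled KO HSD WAT and -1.59 to 0.09 on chow, so clock state and diet group cannot be told apart in this comparison. With the score as a covariate 0 of all 13255 genes were called, Insr was at 0.02 (adjusted p = 1) and Pik3r1 at 1.03 (0.96). Leaving out 1 library ended the Insr call in 6 of 8 cases, and ended that of Pik3r1 without labelled KO chow replicate 2 (0.80, adjusted p = 0.0529). Endothelial markers summed to 212.8 to 227.4 TPM on HSD and 299.2 to 375.6 on chow, with 1 of 5 called lower. Macrophage markers summed to 86.2 to 134.8 TPM on HSD and 121.8 to 167.6 on chow, with 1 of 5 called lower. Fibroblast markers summed to 1456 to 2197 on HSD and 2357 to 2920 on chow, with 3 of 5 called lower, and 1 of 6 adipocyte markers was called lower. Their part in the result was not tested.

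In the same comparison 4 of the 6 lipogenic regulators tested were called higher, namely Scd1, Acaca, Srebf1 and Mlxipl. Scd1, the stearoyl-CoA desaturase, rose by 1.64 ± 0.29 (adjusted p = 0.00372) and Acaca, acetyl-CoA carboxylase, by 1.70 ± 0.36 (0.0121). Slc2a4, the insulin-responsive glucose transporter, rose by 0.78 ± 0.11 (adjusted p = 0.000924). The IGF-binding protein genes called, 3 of 12 ligand-list genes, fell, Igfbp2 by 2.07 (adjusted p = 0.035), Igfbp4 by 0.35 (0.0267) and Igfbp5 by 1.04 (0.0339).

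In CTRL no member was called between HSD and chow in WAT by edgeR or DESeq2, and none had an unadjusted p under 0.05, where 4.77% of all genes were called. Insr held 26.6, 28.7, 31.7 and 32.3 TPM on HSD, all below the chow libraries, as 20.5% of genes above 1 TPM did not overlap. On TMM counts that difference was -0.22 (adjusted p = 0.346). On log2(TPM + 1) limma called 2 members, Insr at -0.45 (adjusted p = 0.0462) and Akt1 at -0.38 (0.0446), where the median of all genes was -0.17. With the length trend removed, 1 member was called, Foxo1 at 0.38 (adjusted p = 0.0412). Grb14, a relative of GRB10 that restrains the receptor, fell by 1.21 ± 0.24 (adjusted p = 0.0158), the 1 of 11 negative regulators called. Scd1 rose by 1.14 (adjusted p = 0.0348), the 1 of 6 lipogenic regulators called. Of 13 AKT-list genes 1 was called higher, Slc2a4 by 0.48 (adjusted p = 0.0249), and 1 lower. HSD thus raised Scd1 and Slc2a4 in WAT of both genotypes. Endothelial markers summed to 246.8 to 364.3 TPM on chow and 166.2 to 204.8 on HSD, with 5 of 5 called lower, and macrophage markers to 137.1 to 202.8 and 80.38 to 117.4, with 3 of 5 called lower. Fibroblast markers summed to 2017 to 2700 and 1630 to 2556 TPM, with 1 of 5 called lower, and of 6 adipocyte markers 1 was called higher and 1 lower. Hepatocyte markers summed to 14.14 to 25.54 and 41.04 to 48.87 TPM, with 0 of 4 tested called. None of these markers was at 0, the clock score was -0.50 to 1.43 on chow and -1.51 to 0.23 on HSD, and their part in the Insr, Akt1 and Foxo1 values was not tested.

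The test of the difference itself, the genotype by diet interaction in WAT, called no member by edgeR or limma. In edgeR 3 members had an unadjusted p under 0.05, and 0.573% of genes were called. Pik3r1 was at 1.15 ± 0.26 (adjusted p = 0.052) and Insr at 0.75 ± 0.20 (0.0747). The DESeq2 Wald test called both (adjusted p = 0.00403 and 0.0185). The clock score in WAT was 2.46 to 3.30 in labelled KO on HSD and at most 1.43 in any other group. Clock state and the interaction thus cannot be told apart.

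**Figure D5:**
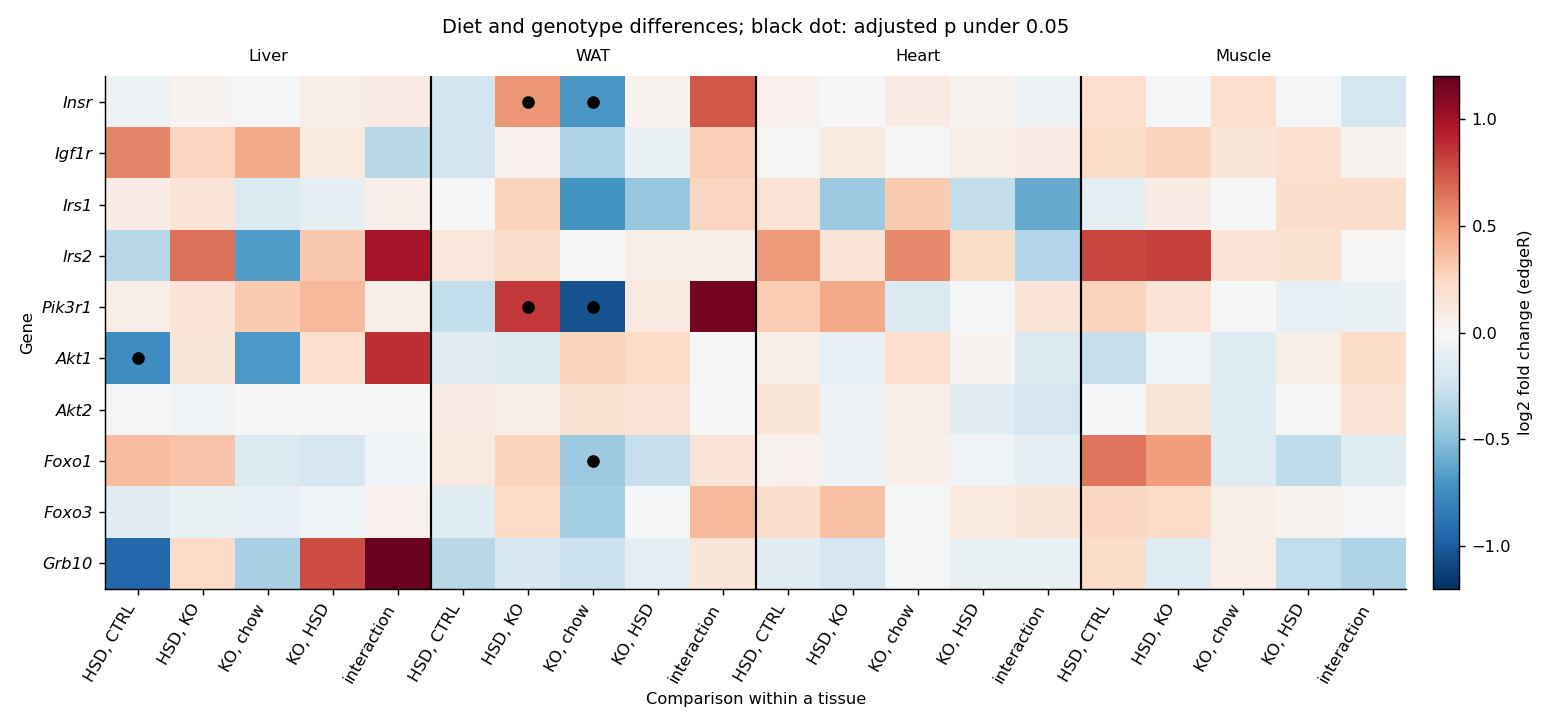
Colour gives the log2 fold change of each gene (rows) in the 5 comparisons of each tissue (columns; KO is the labelled KO), and a black dot marks an edgeR adjusted p under 0.05. The 6 dots lie on Akt1 in liver and on Insr, Pik3r1 and Foxo1 in WAT, and none lies in heart or muscle.

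In liver, Akt1 was the 1 member called in CTRL on HSD against chow, where 4.67% of all 11259 genes were called and 2.19% were called lower. Akt1 held 25.7, 19.6, 19.3 and 18.6 TPM in CTRL on chow and 16.5, 14.8, 12.6 and 11.8 on HSD. The groups did not overlap, and Akt1 fell by 0.74 ± 0.19 (log2, adjusted p = 0.0351). Over genes above 1 TPM, 14.2% did not overlap in this comparison. Its paralogue Akt2 was 36.6 ± 4.31 TPM on chow and 41.2 ± 2.71 on HSD (-0.01, adjusted p = 0.954 on TMM counts).

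The Akt1 call was lost in 6 of 8 cases when 1 library was left out (-0.90 to -0.62 over the 8). Without CTRL chow replicate 1, which held the highest Akt1 and the lowest hepatocyte marker sum, 29420 TPM against 49940 to 68880, Akt1 was at -0.64 (adjusted p = 0.0939). Without CTRL HSD replicate 3, the library with a length slope beyond 0.1, it was at -0.62 (0.097). The clock score was 0.47 to 2.84 on chow and -2.69 to -0.01 on HSD, and with it as a covariate Akt1 was at -1.10 (adjusted p = 0.224), with 1 of all genes called. Hepatocyte markers summed to 29420 to 68880 TPM on chow and 79790 to 86520 on HSD, without overlap in TPM, and 0 of 7 were called on TMM counts. Endothelial markers summed to 16.88 to 21.51 and 24.11 to 34.92 TPM, with 2 of 5 called higher, and 1 of 4 erythroid markers was called lower. No marker of these lists was at 0, and their part in the Akt1 result was not tested.

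Other members in this liver comparison did not pass. Grb10 was at -0.94 ± 0.41 (adjusted p = 0.198), Foxo1 at 0.37 ± 0.17 (0.204) and Igf1r at 0.59 (0.345). Irs2 was at -0.33 (0.577), and Insr at -0.06 (0.822). Of the 7 lipogenic regulators 4 were called, all higher: Pnpla3 by 4.25 ± 0.68 (adjusted p = 0.00511), Scd1 by 1.99 ± 0.45 (0.0257), Acaca by 1.63 ± 0.35 (0.0197) and Fasn, fatty acid synthase, by 1.69 ± 0.39 (0.0289). Of 16 FOXO-list genes 4 were called higher and 1 lower. Ccng2 rose by 1.11 (adjusted p = 0.00446), Ppargc1a, a coactivator of fasting genes, by 1.15 (0.00712) and Sesn3 by 0.79 (0.0131). Igfbp4 was the 1 of 11 ligand-list genes called (-0.55, 0.0118), and no gene was called among the receptor, negative regulator, PI3-kinase, AKT or mTOR lists.

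In labelled KO liver Akt1 held 11.3, 12.2, 14.5 and 12.4 TPM on chow and 16.0, 15.5, 14.6 and 12.3 on HSD. On chow every labelled KO library lay below every CTRL library. The edgeR difference was -0.69 ± 0.19 (adjusted p = 0.197, with 0% of genes called and 5.3% not overlapping), and the DESeq2 Wald test called it (adjusted p = 0.0379), as its 1 member. This comparison and HSD against chow in CTRL share the same 4 CTRL chow libraries. The counts of members with an unadjusted p under 0.05 were 2 for labelled KO against CTRL on chow and 0 for both labelled KO against CTRL on HSD (0.0711% of genes called) and HSD against chow in labelled KO (0.00888%). EdgeR, DESeq2 and limma called no member in the last 2. The interaction had 2 such members, with 0% of genes called, and Akt1 there was at 0.89 ± 0.27 (adjusted p = 0.337).

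In muscle no member was called by edgeR in any of the 5 comparisons. On HSD against chow in CTRL (0.091% of genes called, 2 members at an unadjusted p under 0.05) Foxo1 held 5.78, 5.66, 4.88 and 3.82 TPM on chow and 6.94, 8.32, 9.31 and 8.65 on HSD. The groups did not overlap, as for 7.62% of genes above 1 TPM, and the difference was 0.64 ± 0.16 (adjusted p = 0.0951). DESeq2 called it (0.64, adjusted p = 0.0142), as did edgeR with the clock score as a covariate (0.67, 0.0498). With the length trend removed it was at 0.38 (0.419). In labelled KO, Foxo1 was 4.68 ± 0.65 TPM on chow and 6.61 ± 1.38 on HSD (0.50, adjusted p = 0.307), with 0.00827% of genes called and 1 member at an unadjusted p under 0.05. The clock score in labelled KO muscle was -1.705 to -1.434 on chow and 0.264 to 1.28 on HSD. Clock state and diet thus cannot be told apart there. In the CTRL muscle libraries, adipocyte markers summed to 463.8 to 607.6 TPM on chow and 419.4 to 639.8 on HSD, and 1 of 6 was called higher, Plin1 at 1.497 (log2, adjusted p = 0.0428). Fibroblast markers summed to 217.5 to 425.2 and 412.3 to 482.6 TPM, with 0 of 5 called. No marker of these lists was at 0, and the clock score in CTRL was -2.29 to -0.28 on chow and -1.82 to -0.34 on HSD. The part of markers and clock state in the Foxo1 difference was not tested.

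Irs2 in muscle was the most variable member. It held 8.04, 7.24, 6.08 and 7.67 TPM in CTRL on chow and 14.1, 16.5, 10.9 and 12.1 on HSD, without overlap, and 0.81 ± 0.46 higher on the log2 scale (adjusted p = 0.446). In labelled KO it held 3.11, 3.596, 14.6 and 13.3 on chow and 19.6, 23.3, 10.7 and 6.66 on HSD. Each labelled KO group thus contained a pair of low and a pair of high libraries, and the HSD difference was 0.82 ± 0.46 (adjusted p = 0.694). Genotype comparisons in muscle called no gene at all on chow, on HSD or in the interaction (0% each), with 1 member at an unadjusted p under 0.05 in each. DESeq2 and limma called no member there either.

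In heart no member was called by edgeR, DESeq2 or limma in any comparison. The share of all genes called was 0.0247% for HSD against chow in CTRL, 0.14% in labelled KO, 0% for labelled KO against CTRL on chow, 0.0412% on HSD and 0.00824% for the interaction. Members with an unadjusted p under 0.05 numbered 1, 4, 0, 0 and 1. Pik3r1 was 21.6 ± 4.26 TPM on chow and 24.5 ± 2.30 on HSD in CTRL (0.31 ± 0.13, adjusted p = 0.765), and 19.8 ± 1.47 and 23.8 ± 3.05 in labelled KO (0.46 ± 0.13, 0.239). Grb10 held 14.9 to 17.1 TPM on chow and 13.03 to 14.6 on HSD in CTRL, and 14.8 to 17.4 and 11.6 to 14.1 in labelled KO, without overlap in either genotype, as for 7.59% and 7.17% of genes above 1 TPM. On TMM counts these Grb10 differences were -0.13 (adjusted p = 0.94) and -0.20 (0.609). Irs1 in labelled KO held 2.42 to 3.25 TPM on chow and 1.34 to 2.14 on HSD, also without overlap. In labelled KO the clock score was -1.10 to -0.24 on chow and 1.32 to 2.04 on HSD, so clock state and diet cannot be told apart. Endothelial markers there summed to 120.8 to 141.4 TPM on chow and 90.51 to 110.8 on HSD, with 1 of 5 called lower. Their part in these values was not tested.

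The effect of HSD in CTRL was also compared between tissues. In the main edgeR fit Grb10 was the 1 member whose effect differed between liver and muscle. There 3.64% of genes were called and 1.22% were called lower in liver. It held 0.87, 0.82, 0.86 and 1.83 TPM on chow and 0.71, 0.64, 0.68 and 0.97 on HSD in liver, and 13.4, 15.7, 17.2 and 14.5 on chow and 18.5, 19.7, 18.6 and 15.5 on HSD in muscle. The difference of the effects was -1.09 ± 0.30 (log2, liver minus muscle, adjusted p = 0.0386). Without liver CTRL chow replicate 4, which held 1.83 TPM, it was -0.67 (adjusted p = 0.158), and the call was lost in 10 of 16 cases when 1 library was left out. The labels do not say whether libraries of different tissues with the same title number come from 1 mouse. The main fit takes all libraries as independent, although 4 mice are described in each genotype and diet and the tissues would share them. With the title number as a replicate block, Grb10 was no longer called and Irs2 was called instead.

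Between liver and WAT, 7.33% of genes were called and 2 members had an unadjusted p under 0.05. Between liver and heart the values were 1.36% and 4 members. No member passed in the main edgeR fit of either comparison. With the title number as a replicate block, edgeR called Akt1 in each of them. The Akt1 effect in liver differed from that in heart by -0.79 ± 0.22 (adjusted p = 0.0757; DESeq2 adjusted p = 0.0288) and from that in WAT by -0.61 ± 0.23 (0.0915). The Irs2 effect in liver differed from that in muscle by -1.09 ± 0.35 (0.0816; DESeq2 adjusted p = 0.0499). DESeq2 called 1 member between liver and WAT, Igf1r (0.81, adjusted p = 0.0425), and limma called 2, Igf1r (0.42, 0.0307) and Foxo1 (0.47, 0.0487). The difference of the genotype effect between tissues was not tested.

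Ratios of paralogues within a library do not depend on scaling between libraries. They can still follow a library's length trend where the paralogues differ in length. Foxo1 has 1 annotated coding transcript, of 8665 bases, and Foxo3 has 5, with a median of 2535. The lengths implied by count and TPM were closer. Their tissue medians were 1.384 times that of Irs2 for Foxo1 and 1.044 to 1.08 times for Foxo3. No length trend was removed from them. Over 4 ratios, 4 tissues and 2 factors, 32 exact permutation tests were made (2-sided, 4900 arrangements each, smallest possible p = 0.000408), and none passed after Benjamini-Hochberg adjustment. The lowest was Foxo1 to Foxo3 in heart, which was 0.30 lower (log2) on HSD (exact permutation p = 0.00163, adjusted 0.0522). Irs1 to Irs2 in muscle was 0.537-fold on HSD, lower within both genotypes (exact p = 0.00694, adjusted 0.0631). In WAT it was 0.635-fold in labelled KO, lower on both diets (exact p = 0.0102, adjusted 0.0631). Foxo1 to Foxo3 was higher by 0.46 in liver on HSD and by 0.34 in muscle on HSD (both adjusted exact p = 0.0631). Akt1 to Akt2 was 0.825-fold in WAT on HSD (exact p = 0.00776, adjusted 0.0631).

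The genes most like each member were found from Pearson's r of log2(TPM + 1), centred within each tissue, over the 64 libraries and 8426 genes with at least 1 TPM on average in every tissue. Library depth, length trend and group differences are shared by these points, so r is a description. Insr was closest to Pdpk1 (r = 0.865), the kinase listed above, then March6 (0.841) and Dennd4c (0.837). Akt1 was closest to Mllt1 (0.814) and Cherp (0.803), Igf1r to Tnrc6b (0.755) and Foxo1 to Cep85l (0.719). Akt2 was closest to Mdh2 (0.702), which encodes mitochondrial malate dehydrogenase. Foxo3 was closest to Kmt2a (0.695), Irs1 to Kat6a (0.684), Grb10 to Nrp1 (0.656), Irs2 to Rsrp1 (0.641) and Pik3r1 to Zfp809 (0.603).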

How the data were processed

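RNA-seq libraries of liver, white adipose tissue, heart and muscle were grouped by the tissue, genotype and diet in the labels, 4 libraries per group. The labels describe 4 mice in each genotype and diet, so by that description the libraries of the 4 tissues share mice. Each library was treated as 1 mouse of its group. Whether the tissues of 1 mouse share a title number is not stated. For each of 19521 genes the authors deposited an estimated count and a TPM value per library. Per the submitters' processing notes, kallisto and GRCm38 were used; for its version and the annotation the status is: not given in the sources used here. Deposited TPM values sum to 816010 to 926964 per library. Members and gene lists were chosen with earlier results of these data known.

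After rounding, the estimated counts entered edgeR 4.0.16 (R 4.3.3; TMM, filterByExpr with a minimum count of 10, robust quasi-likelihood F test, 2-sided, threshold 0.05). Adjusted p-values are Benjamini-Hochberg over all genes tested. Each tissue was fitted with its 16 libraries and 4 group means. Tissue comparisons were fitted with the 32 CTRL libraries and no term for the mouse. Values after ± of a log2 change are approximate standard errors. Paralogue ratios used log2 TPM with a pseudocount of 0.01 and exact permutation within genotype or diet (numpy 2.4.6, Python 3.11.15). Errors of TPM are SD.

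Alternatives were DESeq2 1.42.0 size factors and Wald test, limma 3.58.1 on log2(TPM + 1), no low-count filter, each library left out, a loess length trend removed, libraries of length slope beyond 0.1 left out, a clock score covariate and the title number as a block. All 96 replicate pairs differed beyond sampling noise (chi-square over its degrees of freedom at least 4.421). Scripts were tested on simulated data. Named genes are all 10 members in every tissue, up to 3 genes of a list with the smallest p in a comparison described, up to 3 of the most alike genes per member, and Pklr. Mlxipl in WAT and Fasn in liver lie outside that rule and were named after their values were seen. Results for some genes are not reported here. Transcript lengths and gene positions came from a GENCODE annotation of GRCm38 and promoters from RefSeq. The length of a gene in the length trend was the median over its annotated coding transcripts.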

Additional observations from a re-analysis of the deposited data

Results flagged for a closer look

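Of 160 groups of 4 libraries, 10 genes in 16 groups, 7 held a library far from the other 3 by Dixon's ratio, about as many as the 1 in 20 that chance gives. Irs2 in heart of CTRL on HSD was 2.767 TPM in replicate 2 and 1.231 to 1.393 in the others. Pik3r1 in muscle was 9.73 TPM in replicate 2 of CTRL on chow against 6.161 to 6.339, and 10.02 in replicate 2 of labelled KO on chow against 6.36 to 6.854. The latter library also held 1193 TPM of cardiomyocyte markers, where the other 3 held 37.03 to 45.25.

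Akt1 in liver of CTRL on chow was 25.65 TPM in replicate 1 against 18.55 to 19.63. Akt2 in muscle of CTRL on HSD was 101.1 TPM in replicate 3 against 86.5 to 88.63. Grb10 in liver was 1.828 TPM in replicate 4 of CTRL on chow against 0.8235 to 0.8664, and 2.026 in replicate 3 of labelled KO on HSD against 0.7048 to 0.8783.

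By a test of the difference itself, the Grb10 effect of HSD in CTRL differed between liver and muscle by -1.094 (log2, edgeR adjusted p = 0.0386). It rests in part on the liver library at 1.828 TPM, without which it was -0.669 (adjusted p = 0.158). With the title number as a replicate block the difference was not called.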

How the results depend on the processing

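Estimated counts, depth of 5724366 to 12188623 per library and 4 libraries per group limit what could be called. Removing the low-count filter moved no count of members called by over 1.5 times, nor did DESeq2 size factors. Leaving out each library in turn gave 0 to 1 members in liver for HSD against chow in CTRL (main value 1), 0 to 2 in WAT for HSD against chow in labelled KO (2), 2 to 4 in WAT for labelled KO against CTRL on chow (3) and 0 to 2 for the WAT interaction (0). The same range was 0 to 2 for the HSD effect in liver against WAT, 0 to 1 against heart and 0 to 2 against muscle, and 0 to 1 of the 32 paralogue ratios. Why these counts move was not tested beyond the values here.

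The DESeq2 Wald test called, for labelled KO against CTRL on chow, 1 member in liver and 5 in WAT, 2 in the WAT interaction, 1 in muscle for HSD in CTRL, and 1, 1 and 2 for the HSD effect in liver against WAT, heart and muscle. Limma on log2(TPM + 1) called 2 in WAT for HSD in CTRL, 1 for HSD in labelled KO, 10 between WAT and muscle, and 2 and 0 for the HSD effect against WAT and muscle. With the length trend removed 1 was called in WAT for HSD in CTRL and 1 for the HSD effect against heart. The clock covariate left 0 in liver for HSD in CTRL, 0 in WAT for HSD in labelled KO, 1 in WAT for labelled KO against CTRL on chow, and gave 1 in muscle for HSD in CTRL. Without libraries of length slope beyond 0.1, liver for HSD in CTRL had 0 and WAT for labelled KO against CTRL on chow had 0. That setting leaves 2 of the 4 CTRL chow libraries in WAT.

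Whether libraries with the same title number come from 1 mouse is not stated, and the data did not settle it. The correlation of their deviations across tissues was -0.043 to 0.158 over 48 pairs, above 0.1 in 10 and above 0 in 42. In 57 of 96 cases a library correlated best with its own number among the 4 of its diet in another tissue. A match at random would be 1 in 4. The higher share is a hint from the data, and not from the design, that a number marks a mouse. The main fit of the tissue comparisons takes the libraries as independent. With 4 mice described in each genotype and diet, the tissues would share mice whatever a number marks, and independence would not hold. With the title number as a replicate block, 1 member was called for the HSD effect in liver against WAT (Akt1, -0.651, adjusted p = 0.0158), 1 against heart (Akt1, -0.80, 0.0118) and 1 against muscle, which was Irs2 (-1.008, 0.0191) in place of Grb10 (-1.081, 0.0659). The block changed no other call.

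Directions that turned were mostly between WAT and another tissue on log2(TPM + 1). Liver against WAT became -0.768 for Insr, -1.351 for Akt1 and -0.545 for Foxo3. WAT against heart became 0.888 for Insr, 0.731 for Igf1r, 0.37 for Akt1 and 0.912 for Grb10. WAT against muscle became 1.472 for Insr, 0.545 for Irs1, 1.188 for Irs2, 0.708 for Akt1, 1.064 for Akt2, 0.943 for Foxo3 and 1.007 for Grb10, and Foxo1 in WAT for HSD in CTRL became -0.051.

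Small differences that were not called also changed sign. Akt1 in liver against WAT was -0.029 with DESeq2 size factors and with its Wald test, and from -0.039 to 0.141 with 1 library left out, below 0 without liver chow replicate 1 (-0.034) or WAT chow replicate 2. Irs1 in WAT against heart was -0.029 with the length trend removed, and from -0.066 to 0.192 with 1 library left out, below 0 without WAT chow replicate 4 or heart chow replicate 3 (-0.018). Insr in WAT against muscle was 0.041 with DESeq2 size factors and its Wald test, and from -0.124 to 0.043 with 1 library left out, above 0 without WAT chow replicate 3 (0.006) or muscle chow replicate 2. Irs2 there ran from -0.261 to 0.048, above 0 without WAT chow replicate 3, and Igf1r -0.156 with the length trend removed. The HSD effect of Foxo1 in liver against WAT was -0.046 with the length trend removed.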
